A study of Saccharomyces cerevisiae with 40 samples.

Results

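Budding yeast of strain Σ1278b carries several genes for the uptake of nitrogen in compounds larger than ammonium or a single amino acid. The 4 considered here are DAL5, PTR2, OPT1 and OPT2, found by gene symbol among the 5557 genes named on the arrays. DAL5 (YJR152W) encodes the permease for allantoate and ureidosuccinate, which also takes up some dipeptides. PTR2 (YKR093W) encodes the plasma membrane transporter of di- and tripeptides. OPT1 (YJL212C, also named HGT1) encodes a transporter of longer oligopeptides that is also the high-affinity transporter of glutathione, and OPT2 (YPR194C) encodes a member of the same family that has been linked to lipid asymmetry of the plasma membrane. All 4 genes had values on at least 30 of the 40 arrays, as had 4332 genes in all, and each was read from 2 spots in either of the 2 value tables. Neither peptides nor allantoate were among the nitrogen sources, so the values describe the expression of these genes in media without their best-known substrates.

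Cells grew in minimum medium with 3% glucose for at least 10 generations and were harvested in exponential growth at low density. The only nitrogen source of a culture was ammonium (as ammonium sulfate), glutamine, asparagine, glutamate, aspartate, alanine, serine, threonine, GABA, proline, arginine, ornithine, citrulline, leucine, isoleucine, valine, methionine, phenylalanine or tyrosine at 10 mM, tryptophan at 5 mM, or urea at 10 mM. PolyA RNA from the source culture and from urea was labelled with the dyes Cy5 and Cy3 and hybridised to the same array, with 2 arrays for each of the 20 sources, so every value is a ratio to urea. For 18 sources the dyes were opposite on the 2 arrays, replicate 1 with the source in Cy5 and replicate 2 with urea in Cy5. Urea was in Cy5 on both arrays of tryptophan and of tyrosine.

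These genes stand under controls that are known from earlier work on yeast. Nitrogen catabolite repression keeps genes for poor nitrogen sources low while a preferred source is present: the GATA activators Gln3 and Gat1 are held back, and DAL5 is a classical target. PTR2 is repressed by the homeodomain protein Cup9, which the ubiquitin ligase Ubr1 marks for degradation faster when certain dipeptides bind it, and PTR2 is also raised by external amino acids through the Ssy1-Ptr3-Ssy5 (SPS) sensor and the factors Stp1 and Stp2. OPT1 is known as a gene of sulfur supply, because glutathione carries cysteine. The submitters chose urea as the reference partly because neither catabolite repression nor SPS control operates on it.

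Between 3294 and 5218 genes had a value on an array, with a median of 4708, and precision is limited by how few arrays a source has. Genes with a known inducer moved as the labels name the sources: UGA4, the GABA permease gene, was at 3.80 and 5.04 on the 2 GABA arrays, PUT2 of proline breakdown at 1.71 and 2.33 on proline, and the arginase gene CAR1 at 1.71 and 1.43 on arginine. Values are log2 ratios of source over urea, the base being taken as 2 because the files do not name it. Fitted values have ± SE (n = 2 arrays per source), and each SE rests on 1 spread per gene over all arrays. "Rose" and "fell" mean a limma test against 0 with a Benjamini-Hochberg adjusted p under 0.05 over all genes tested on that source. A ratio cannot tell a change on the source from a state particular to urea, less RNA in every cell from RNA in fewer cells cannot be told apart, and since the labels name no separate cultures the p-values reflect only how far arrays differ, which may be technical.

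DAL5 RNA was lower on all 20 sources than on urea, on each of the 40 arrays, and by very different amounts. The fitted log2 ratio ran from -5.97 ± 0.37 on asparagine to -0.72 ± 0.37 on proline, and DAL5 fell on 16 of 20 sources. Of the 1256 genes tested on all 20 sources, 27 (2.15%) fell on 16 or more. The SD of the DAL5 values over the sources was 1.65, the third highest of 3920 genes with 20 values, whose median was 0.17.

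The lowest DAL5 values came from amides, serine and ammonium. The 2 asparagine arrays read -6.94 and -5.00, the glutamine arrays -5.52 and -5.31, the serine arrays -6.23 and -3.75 and the ammonium arrays -5.57 and -4.29. Fitted values were -5.97, -5.41, -4.99 and -4.93, in that order, with adjusted p-values of limma's test between 7.95e-12 (asparagine) and 1.11e-09 (ammonium). The 8 arrays of these sources lay between -6.94 and -3.75, below every array of the 14 sources from arginine upwards in the order. Aspartate followed with -4.37 and -3.65 on its arrays and -4.01 fitted. Alanine arrays read -5.04 and -2.13, the widest gap between arrays that any of the 4 genes showed, and gave -3.58.

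A middle group held arginine, GABA, glutamate, the branched-chain amino acids leucine and valine, and ornithine. DAL5 read -3.62 and -2.63 on arginine, -3.16 and -2.89 on GABA and -3.51 and -1.96 on glutamate, fitted at -3.12, -3.02 and -2.74. It read -2.91 and -1.67 on leucine, -2.58 and -1.98 on valine and -2.09 and -1.99 on ornithine, fitted at -2.29, -2.28 and -2.04. Neighbours in the order overlap among these 6 sources, and the highest of the 12 is -1.67. Higher still were phenylalanine (-2.12 and -1.69, fitted -1.90), tyrosine (-1.31 and -1.18, fitted -1.70), threonine (-1.83 and -1.11, fitted -1.47) and methionine (-1.04 and -1.51, fitted -1.27), where DAL5 still fell, with adjusted p-values of 0.000882, 0.00333, 0.00585 and 0.0124 by limma.

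On 4 sources DAL5 was not called. It read -1.14 and -0.56 on isoleucine, -1.32 and -0.32 on citrulline, -0.39 and -0.27 on tryptophan and -0.64 and -0.79 on proline, with fitted values of -0.85, -0.82, -0.78 and -0.72 and adjusted p-values of 0.149, 0.158, 0.158 and 0.185 by limma. All 8 arrays lie below 0, and 3 of the 4 sources have an unadjusted p under 0.05. For tryptophan and tyrosine the fitted value is lower than both arrays, since the fit takes the dye term of DAL5 from the other 18 sources. Without that term DAL5 was at -0.33 on tryptophan (adjusted p = 0.769, limma). On tyrosine it was then at -1.24 and no longer called (adjusted p = 0.163, limma). Methionine and threonine also lost their calls without the dye term (adjusted p = 0.12 and 0.0831, limma), and DAL5 fell on 13 sources. With the replicate number as a block in place of the dye term, tyrosine kept its call (0.03) and tryptophan had none (0.615).

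Beside these calls, the share of all tested genes that fell was 14.7% on asparagine, 12.9% on glutamine, 11.3% on serine, 10.7% on ammonium, 10.1% on aspartate and 12.1% on alanine. It was 8.91% on arginine, 11% on GABA, 9.87% on glutamate, 8.27% on leucine, 6.87% on valine and 10.1% on ornithine. For phenylalanine, tyrosine, threonine and methionine it was 9.8%, 6.62%, 8.8% and 11.1%. DAL5 departed from urea over all sources in 1 test (F 72.95, adjusted p = 1.8e-14 by limma's F-test), as did 63.5% of all genes.

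**Figure D1:**
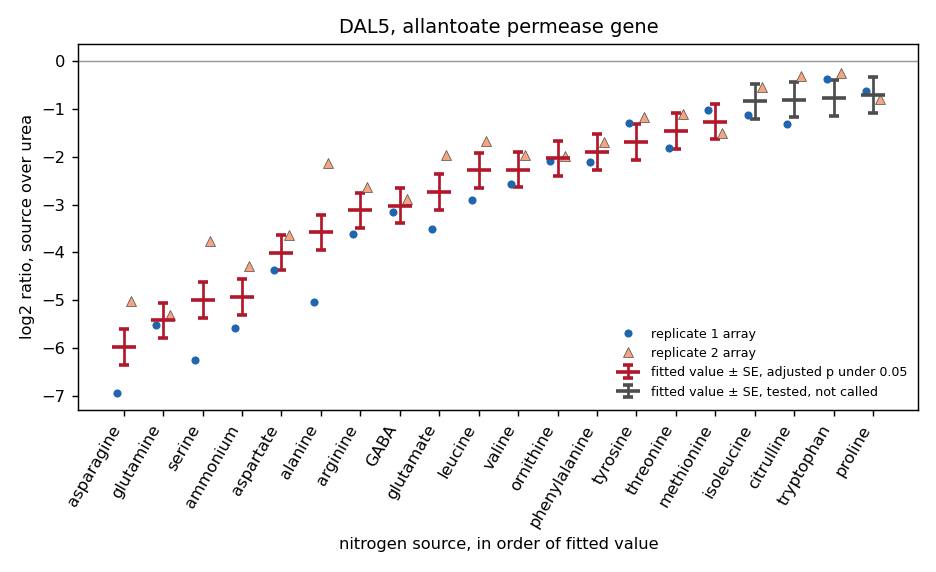
Log2 ratio of DAL5 RNA, source over urea (y axis), on the 20 nitrogen sources in order of the fitted value (x axis); circles and triangles are the 2 arrays of a source, bars the fitted value with its SE, red where DAL5 fell and dark grey where it was not called. All 40 arrays lie below 0, and the fitted values climb from -5.97 on asparagine to -0.72 on proline.

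DAL5 read differently on the 2 arrays of a source, mostly in 1 direction. Dye orientation, replicate number and value table coincide for 18 sources, so their parts in this cannot be told apart. Replicate 1, with the source in Cy5, read lower than replicate 2 on 16 of the 18 sources with opposite dyes, and the dye term was -0.46 ± 0.09 (adjusted p = 0.000144, limma). Passing for this term was common, at 2042 of the 4332 genes fitted. The median gap between the 2 arrays of a source was 0.66, against 0.05 between the 2 spots on an array. Leaving out 1 array ended the call on methionine (-0.54 without replicate 2), ornithine (-1.61 without replicate 2), phenylalanine (-1.65 without replicate 2), threonine (-1.57 and -1.37) and tyrosine (-1.64 and -1.76), while the other 11 calls, from asparagine to valine, passed on either array alone. With the spread taken from the 2 arrays of a source only, arginine was not called (adjusted p = 0.0798, limma). Proline, not called in the main fit, was then called lower (adjusted p = 0.0116, limma).

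Between sources the urea level cancels if the urea RNA was the same on all arrays, which the labels do not say. DAL5 differed in 81 of 190 pairs of sources (42.6%), against 4.2% of all gene and pair combinations tested. Asparagine lay below 15 of the other 19 sources, glutamine below 14, serine below 13 and ammonium below 11. Isoleucine, citrulline and tryptophan each lay above 9 others, and methionine and proline above 8. No 2 neighbours in the order differed beyond their spread: the largest of the 19 steps was 0.92, from ammonium to aspartate, and the lowest adjusted p of a step was 0.611 (limma).

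Molecules that differ by a named change in structure gave different DAL5 levels in 3 of 9 pairs. Glutamine, the amide of glutamate, lay 2.68 ± 0.52 below it (difference -2.68, 95% interval -3.74 to -1.61, adjusted p = 0.00498, limma). Threonine, which is serine with a methyl group added, lay 3.53 ± 0.52 above it (interval 2.46 to 4.60, adjusted p = 9.02e-05). Citrulline, which carries a ureido group where arginine carries a guanidino group, lay 2.31 ± 0.52 above arginine (interval 1.24 to 3.37, adjusted p = 0.0089). Asparagine against its acid aspartate gave -1.96, with an interval of -3.03 to -0.89 that excludes 0 but an adjusted p of 0.0966 over all genes. Ornithine minus arginine was 1.09 (interval 0.02 to 2.15), leucine minus isoleucine -1.44 (-2.51 to -0.37) and tryptophan minus phenylalanine 1.12 (0.04 to 2.21), with adjusted p-values of 0.56, 0.26 and 0.235 by limma. Leucine minus valine was -0.01, with an interval of -1.08 to 1.06 that holds a change of 1 in either direction, and tyrosine minus phenylalanine was 0.20 (-0.88 to 1.29). Without the dye term, glutamine minus glutamate and citrulline minus arginine were no longer called (adjusted p = 0.275 and 0.13, limma), and with array weights the call on citrulline minus arginine was lost (0.104) and that on asparagine minus aspartate gained (0.0104).

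PTR2 RNA was higher on the sources than on urea, on all 33 arrays that gave it a value. Citrulline, isoleucine, methionine and tryptophan gave the highest levels and alanine, proline and ammonium the lowest. PTR2 rose on 9 of the 13 sources with both arrays, from 0.54 ± 0.19 on leucine to 2.89 ± 0.19 on citrulline, and fell on none. The 7 missing values all belong to arrays with urea in Cy5, as do the 5 missing for OPT1 and the 7 missing for OPT2, and the part of this pattern in the results was not tested.

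The citrulline arrays read 2.60 and 3.18 (fitted 2.89 ± 0.19, adjusted p = 5.3e-09, limma). Methionine arrays read 1.85 and 2.09 and tryptophan arrays 1.92 and 1.42, fitted at 1.97 and 1.68. Both citrulline arrays lie above every other array of a source measured on 2. PTR2 read 1.24 and 1.42 on valine, 0.83 and 1.40 on threonine and 1.10 and 0.83 on ornithine, fitted at 1.33, 1.12 and 0.97. On GABA it read 0.57 and 0.94, on phenylalanine 0.93 and 0.18 and on leucine 0.74 and 0.35, fitted at 0.76, 0.55 and 0.54, with adjusted p-values of 0.00698, 0.0414 and 0.048 by limma. The phenylalanine arrays lie 0.75 apart, the widest gap for PTR2.

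Asparagine (0.44 and 0.35, fitted 0.39), ammonium (0.46 and 0.23, fitted 0.35), proline (0.48 and 0.21, fitted 0.34) and alanine (0.44 and 0.067, fitted 0.25) gave no call, although all 8 of their arrays lie above 0. On 7 sources PTR2 had a value on 1 array and was not tested. Isoleucine read 3.00 there, as high as citrulline, and tyrosine 1.08, while serine, glutamate, glutamine, arginine and aspartate read between 0.39 and 0.54. Tested on that 1 array, with the spread of the other sources assumed for it, isoleucine (2.98 ± 0.27, adjusted p = 1.01e-06) and tyrosine (1.10 ± 0.27, adjusted p = 0.011) passed by limma and the other 5 did not.

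The share of all tested genes that rose was 5.25% on citrulline, 12.7% on methionine, 10.3% on tryptophan, 9.48% on valine, 12.7% on threonine, 10.5% on ornithine, 10.2% on GABA, 10.6% on phenylalanine and 10.4% on leucine. Over all sources PTR2 gave F 45.67 (adjusted p = 1.1e-09, limma). Leaving out 1 array ended the call on GABA (0.54 without replicate 2), leucine (0.35 and 0.73), ornithine (0.83 without replicate 1), phenylalanine (0.16 without replicate 1) and threonine (0.78 without replicate 2). The call on leucine was also lost with the replicate number as a block (adjusted p = 0.0533, limma).

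**Figure D2:**
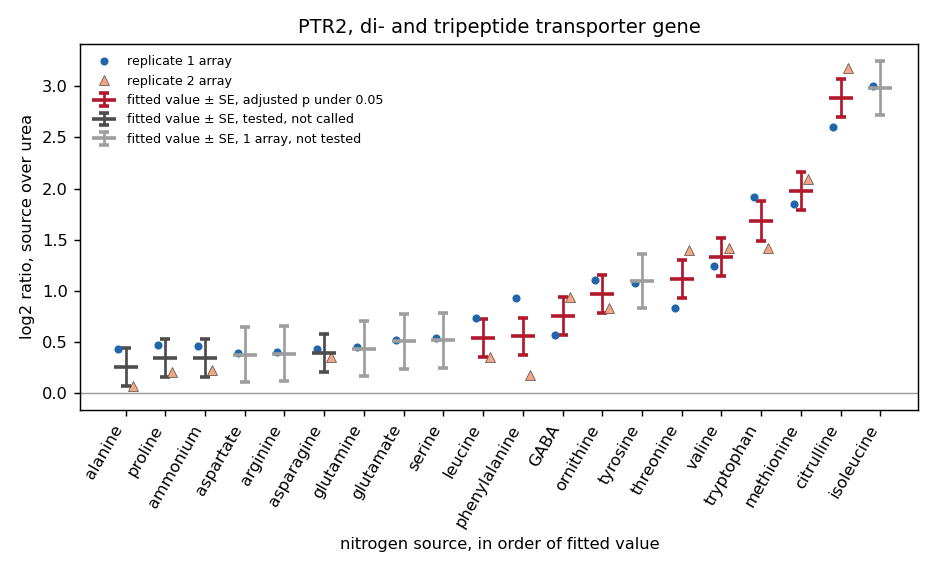
Log2 ratio of PTR2 RNA, source over urea (y axis), on the 20 nitrogen sources in order of the fitted value (x axis); circles and triangles are the 2 arrays of a source, bars the fitted value with its SE, red where PTR2 rose, dark grey where it was not called and light grey where only 1 array had a value. Citrulline and isoleucine sit at 2.89 and 2.98, methionine and tryptophan at 1.97 and 1.68, and 9 sources at or below 0.52.

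PTR2 differed between sources in 28 of 78 pairs tested (35.9%). Citrulline lay above each of the 12 other sources tested, from 0.92 ± 0.26 above methionine (adjusted p = 0.036, limma) to 2.64 ± 0.26 above alanine. That step from methionine to citrulline was the only one of 12 between neighbours that passed. Methionine lay above 8 others and tryptophan above 7, and no pair among the sources from alanine to threonine in the order passed. Of the pairs of related molecules 2 had values on all arrays. Tryptophan lay 1.13 ± 0.27 above phenylalanine, both aromatic amino acids (interval 0.57 to 1.69, adjusted p = 0.0211, limma; 0.0569 with array weights). Leucine minus valine was -0.79 (interval -1.34 to -0.24, adjusted p = 0.208). Citrulline minus arginine was 2.50 and leucine minus isoleucine -2.44, both resting on 1 array for a side and not tested.

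OPT1 RNA was below its urea level on most sources and near it on citrulline, tyrosine, threonine and tryptophan. It fell on 10 of the 15 sources with both arrays, by up to 1.48 on the log2 scale on ammonium and GABA, and rose on none. Its range over sources, 1.72, was a smaller one than those of DAL5 (5.25) and PTR2 (2.73), but its arrays also lay closer together, with a median gap of 0.23.

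The ammonium arrays read -1.46 and -1.51, the GABA arrays -1.16 and -1.80 and the methionine arrays -1.14 and -1.75, fitted at -1.48, -1.48 and -1.44 ± 0.14. Arginine read -1.33 and -1.33, asparagine -1.01 and -1.47 and aspartate -1.12 and -1.26, fitted at -1.33, -1.24 and -1.19, and adjusted p-values of these 6 sources lay between 1.4e-07 (methionine) and 4.09e-06 (aspartate) by limma. All 12 arrays lie at or below -1.01. OPT1 read -0.57 and -1.02 on valine, -0.82 and -0.68 on alanine, -0.29 and -0.91 on phenylalanine and -0.64 and -0.39 on proline, fitted at -0.79, -0.75, -0.60 and -0.52 with adjusted p-values of 0.000548, 0.000494, 0.00487 and 0.0139 by limma. In each of these 4, leaving out 1 array ended the call: valine without replicate 2 (-0.68), alanine without replicate 1 (-0.55), phenylalanine without replicate 2 (-0.40) and proline without replicate 1 (-0.25). With the spread taken from the 2 arrays of a source only, arginine, valine and proline were not called (adjusted p = 0.0798, 0.0521 and 0.0673, limma).

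OPT1 was not called on leucine (-0.28 and -0.45, fitted -0.36), isoleucine (0.015 and -0.48, fitted -0.23), citrulline (-0.029 and 0.081, fitted 0.026), threonine (0.34 and 0.11, fitted 0.22) and tryptophan (0.10 and 0.13, fitted 0.24). Both arrays of threonine and of tryptophan lie above 0, and those of isoleucine and citrulline lie on either side of it. On 5 sources 1 array had a value: ornithine read -1.31, glutamine -1.17, serine -1.07, glutamate -1.04 and tyrosine 0.006. Tested on that array alone, ornithine, glutamine, serine and glutamate passed (adjusted p from 5.2e-05 for ornithine to 0.000411 for glutamate, limma) and tyrosine did not (0.721). The share of all tested genes that fell on proline was 7.61%, and the shares for the other 9 sources are those given with DAL5. Over all sources OPT1 gave F 46.52 (adjusted p = 1.09e-10, limma), and its dye term was 0.12 ± 0.04 (adjusted p = 0.011).

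**Figure D3:**
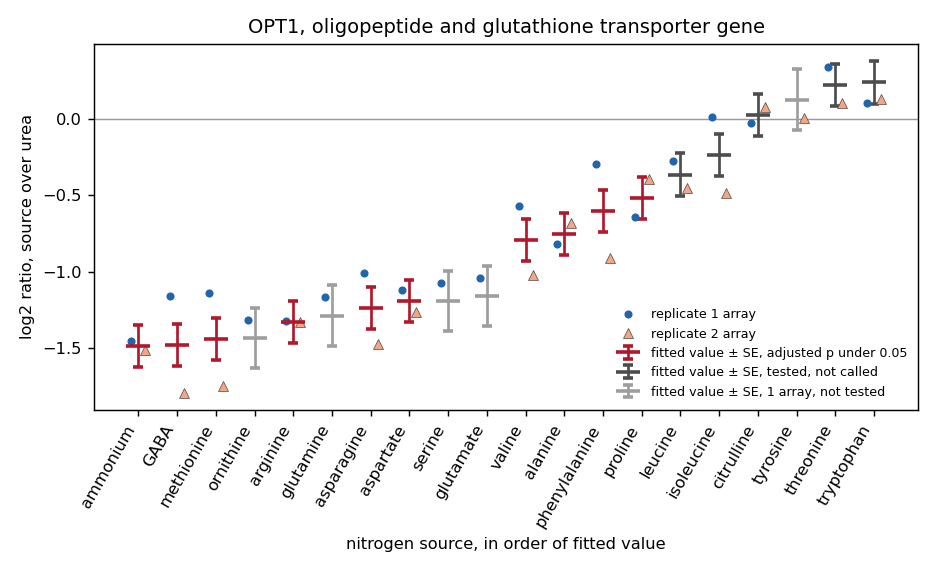
Log2 ratio of OPT1 RNA, source over urea (y axis), on the 20 nitrogen sources in order of the fitted value (x axis); circles and triangles are the 2 arrays of a source, bars the fitted value with its SE, red where OPT1 fell, dark grey where it was not called and light grey where only 1 array had a value. A block of 10 sources from ammonium to glutamate lies between -1.48 and -1.16, and citrulline, tyrosine, threonine and tryptophan lie between 0.026 and 0.24.

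OPT1 differed in 51 of 105 pairs of sources tested (48.6%), and in 45 with the replicate number as a block. Threonine and tryptophan each lay above 10 of the other 14 sources and citrulline above 8, while methionine lay below 9 and ammonium, asparagine and GABA below 7. No step between the 14 neighbours passed, the largest being 0.40. Methionine, a sulfur amino acid, was 1.67 ± 0.20 below threonine (difference -1.67, adjusted p = 7.8e-06, limma) and 1.68 ± 0.20 below tryptophan (-1.68, 7.37e-06), while DAL5 stood at -1.27 on methionine, -1.47 on threonine and -0.78 on tryptophan and neither pair passed for it. Citrulline lay 1.35 ± 0.20 above arginine (interval 0.95 to 1.76, adjusted p = 0.000286, limma). Tryptophan lay 0.84 ± 0.20 above phenylalanine (interval 0.43 to 1.25, adjusted p = 0.0191, limma; 0.72 with an adjusted p of 0.0523 with the replicate number as a block). The pairs that did not pass were asparagine minus aspartate at -0.05 (interval -0.45 to 0.36), leucine minus isoleucine at -0.13 (-0.54 to 0.28) and leucine minus valine at 0.43 (0.02 to 0.84), with adjusted p-values of 0.963, 0.899 and 0.44.

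OPT2 RNA was above its urea level on nearly every source, by about the same amount on most. It rose on 11 of the 13 sources with both arrays, from 0.54 ± 0.16 on isoleucine to 1.31 ± 0.16 on glutamine, and fell on none. Of 33 arrays with a value, 32 lay above 0, the exception being methionine replicate 2 at -0.26.

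The glutamine arrays read 1.40 and 1.22, the glutamate arrays 1.20 and 1.02 and the phenylalanine arrays 1.14 and 0.92, fitted at 1.31, 1.11 and 1.03. Threonine read 0.87 and 1.15, proline 0.98 and 1.03 and valine 0.66 and 1.30, fitted at 1.01, 1.00 and 0.98. Ammonium read 0.75 and 1.16, asparagine 0.88 and 1.00 and aspartate 0.65 and 1.23, fitted at 0.96, 0.94 and 0.94. The 18 arrays of these sources lie between 0.65 and 1.40 with no source wholly above the others, and adjusted p-values ran from 8.55e-06 (glutamine) to 0.000508 (valine) by limma. Tyrosine (0.31 and 0.83, fitted 0.54, adjusted p = 0.037) and isoleucine (0.68 and 0.40, fitted 0.54, adjusted p = 0.0419) passed narrowly by limma.

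Citrulline (0.19 and 0.031, fitted 0.11) and methionine (0.12 and -0.26, fitted -0.074) were not called for OPT2. On 7 sources 1 array had a value: alanine read 1.32, arginine 1.00, ornithine 0.93, serine 0.81, leucine 0.63, GABA 0.41 and tryptophan 0.20. Tested on that array alone, alanine, arginine, ornithine and serine passed (adjusted p = 0.000429, 0.00573, 0.00897 and 0.0163, limma), and leucine, GABA and tryptophan did not (0.0589, 0.204 and 0.676). The share of all tested genes that rose was 12.1% on glutamine, 10.5% on glutamate, 9.6% on proline, 10.2% on ammonium, 10.4% on asparagine, 11.3% on aspartate, 8.43% on tyrosine and 5.73% on isoleucine, those for phenylalanine, threonine and valine being given with PTR2. Over all sources OPT2 gave F 29.78 (adjusted p = 2.54e-08, limma). Leaving out 1 array ended the call on ammonium (0.77 without replicate 2), aspartate (0.65 without replicate 2), valine (0.66 without replicate 2), tyrosine (0.28 without replicate 2) and isoleucine (0.36 and 0.72), so that 6 sources passed on their replicate 1 alone and 10 on their replicate 2 alone.

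**Figure D4:**
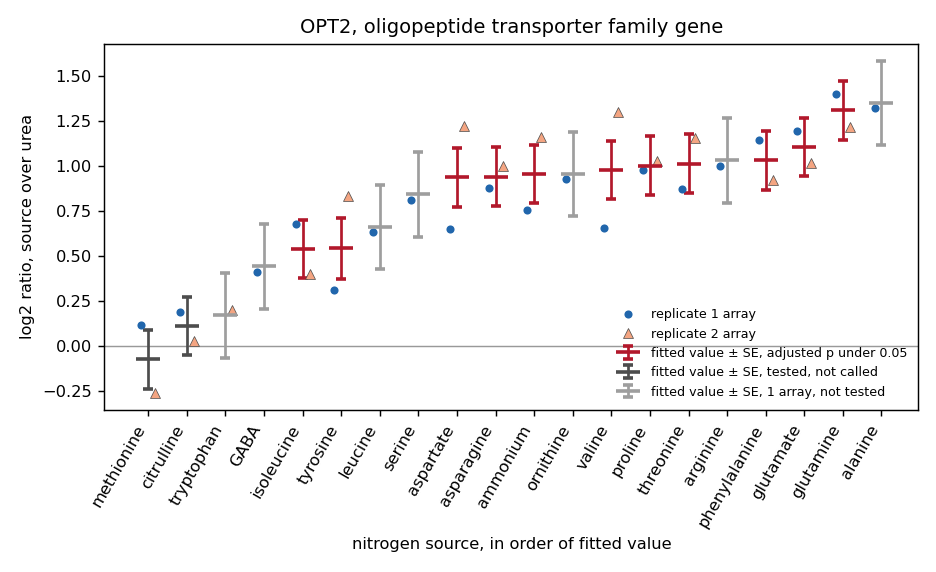
Log2 ratio of OPT2 RNA, source over urea (y axis), on the 20 nitrogen sources in order of the fitted value (x axis); circles and triangles are the 2 arrays of a source, bars the fitted value with its SE, red where OPT2 rose, dark grey where it was not called and light grey where only 1 array had a value. Methionine and citrulline lie next to 0, and 13 sources from serine to alanine lie between 0.84 and 1.35.

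OPT2 differed in 20 of 78 pairs of sources tested (25.6%), and 18 of these set citrulline or methionine below another source. Each of these 2 lay below 9 of the other 12, citrulline by 1.20 ± 0.23 against glutamine (adjusted p = 0.00216, limma) and methionine by 1.38 ± 0.23 (adjusted p = 0.000299). The other 2 pairs set glutamine above isoleucine and tyrosine. None of the 12 steps between neighbours passed, and neither did any of the 3 related pairs tested: asparagine minus aspartate was 0.005 (interval -0.48 to 0.49), glutamine minus glutamate 0.20 (-0.28 to 0.69) and tyrosine minus phenylalanine -0.49 (-0.98 to 0.0043), with adjusted p-values of 0.995, 0.999 and 0.331.

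Citrulline set the 4 genes apart in a way that is visible array by array. Its 2 arrays read 2.60 and 3.18 for PTR2, the highest of any source with 2 values, and 0.19 and 0.031 for OPT2, among the lowest. They read -1.32 and -0.32 for DAL5, below the urea level but not called, and -0.029 and 0.081 for OPT1, on either side of it. Tryptophan was like citrulline for all 4 genes, although its PTR2 value (1.68) was lower. OPT2 was at 0.17 on tryptophan, fitted from 1 array, and DAL5 (-0.78) and OPT1 (0.24) were not called there. Methionine shared the PTR2 and OPT2 pattern but had OPT1 at -1.44. Proline differed from these sources: DAL5 was among its highest there (-0.72, and -1.28 or -0.15 with an array left out) while PTR2 was among its lowest (0.34). Both tryptophan arrays lay above both proline arrays for DAL5, but both had urea in Cy5, the orientation that mostly read higher for this gene. With the dye term fitted, DAL5 was at -0.78 on tryptophan and -0.72 on proline. Over the 20 sources the fitted values correlated at Pearson r = 0.64 between DAL5 and PTR2, 0.65 between DAL5 and OPT1, 0.48 between PTR2 and OPT1, -0.53 between DAL5 and OPT2, -0.73 between PTR2 and OPT2 and -0.29 between OPT1 and OPT2. These are descriptions over 20 points that share the urea reference, with 1 array behind some of them.

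**Figure D5:**
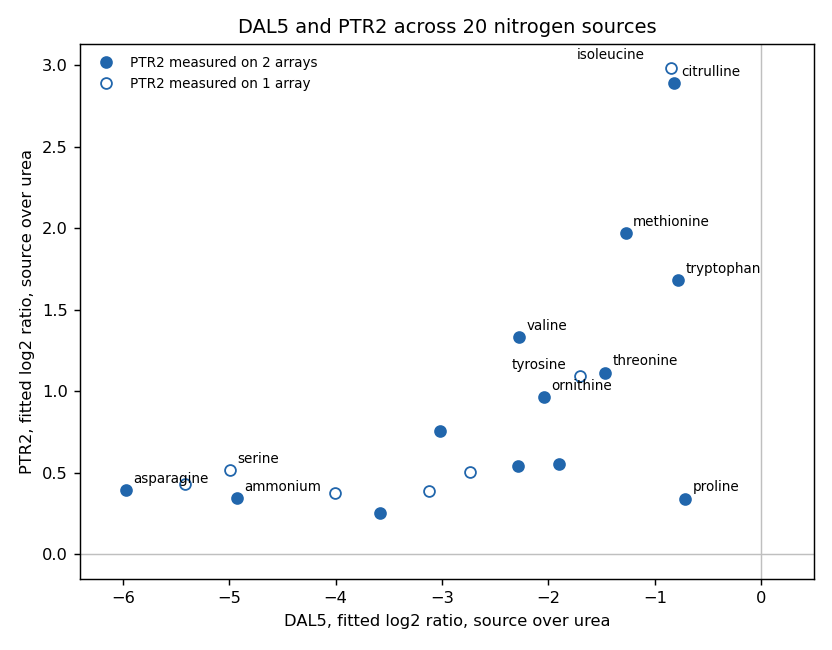
Fitted log2 ratios of source over urea for DAL5 (x axis) and PTR2 (y axis), 1 point per nitrogen source, filled where PTR2 had 2 arrays and open where it had 1. The 9 sources from asparagine to glutamate in the DAL5 order have PTR2 at or below 0.76, and among the others the PTR2 values spread from 0.34 on proline to 2.98 on isoleucine.

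The sources leucine, isoleucine, methionine, threonine, tryptophan and tyrosine, a class set with earlier results known, were compared with the other 14, the source being the unit. None of the 4 genes passed, while 11.6% of the 3674 genes tested did. DAL5 averaged -1.39 on the class and -3.25 on the others (difference 1.86 ± 0.64, adjusted p = 0.0604, limma), and its ranges overlap, -2.29 to -0.78 against -5.97 to -0.72. With the replicate number as a block in place of the dye term the DAL5 difference was 2.01 and passed (adjusted p = 0.0456). OPT1 averaged -0.32 against -0.94 (0.62 ± 0.27, adjusted p = 0.157, 5 and 10 sources), PTR2 1.33 against 0.87 (0.46 ± 0.41, adjusted p = 0.527, 4 and 9 sources) and OPT2 0.51 against 0.93 (-0.42 ± 0.19, adjusted p = 0.18, 4 and 9 sources). With the sources of 1 array included, the OPT1 difference was 0.79 and passed (adjusted p = 0.0253, limma), and it was 0.74 and passed on replicate 1 alone (adjusted p = 0.0366). It was 0.33 (adjusted p = 0.547) with the 7 amino acids that leave fusel alcohols as the class and 0.48 (0.369) without tryptophan and tyrosine, where DAL5 gave 1.71 (0.114) and 1.78 (0.186).

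Other genes of the pathways around these transporters were read in lists. For each list the calls over all sources are counted, beside 9.42% lower and 10.1% higher among all 75322 gene and source tests, and all of them share the urea reference. Genes of allantoin and urea use were lower in 95 of 119 tests and higher in 2, with medians from -3.02 on asparagine to -0.50 on citrulline, while the median of all genes stayed between -0.009 and 0.0014. Most changed were DAL4, the allantoin permease gene (-4.81 on asparagine), and DAL7, a malate synthase gene of allantoin use (-4.54 on glutamine). Nitrogen permeases under catabolite repression were lower in 48 of 130 tests and higher in 19, with all 6 tested lower on asparagine (median -2.87) and a median of -0.04 on citrulline. GAP1, the general amino acid permease gene, was at -4.19 on asparagine, and UGA4 rose on 9 of 16 sources (4.42 on GABA). Of the GATA factors, DAL80, a repressor that is itself a target of the activators, was at -5.45 on asparagine and GAT1 at -1.59 on glutamine. Their list, which also counts URE2, was lower in 44 of 90 tests and higher in 3. URE2, which is not itself a GATA factor, made up 20 of these tests, with 0 lower and 1 higher. In the family of DAL5, YCT1, a cysteine transporter gene, fell on 15 of 19 sources (-1.50 on proline) and VHT1, the biotin transporter gene, was at 1.22 on leucine. The 4 family members fitted were lower in 15 of 75 tests and higher in 10.

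Around PTR2, the permease genes known as SPS targets were higher in 67 of 103 tests and lower in 9, with medians from 0.33 on proline to 2.66 on methionine. All 9 lower calls were of DIP5, the dicarboxylic amino acid permease gene. AGP1, a broad amino acid permease gene, rose on 17 of 19 sources, up to 6.50 on tryptophan, and read 6.16 on citrulline, where PTR2 stood highest among the sources with 2 arrays. On citrulline 2 of the 4 genes of this list that were tested rose. On alanine and asparagine 5 of 6 rose on each (medians 1.95 and 1.77), while PTR2 was not called there (0.25 and 0.39). TAT2, a tryptophan and tyrosine permease gene, was at 4.04 on tyrosine. Of the sensor and its factors only 3 of 6 genes were fitted. They were lower in 10 of 55 tests, all of them of STP2 (-0.90 on asparagine). RNA of the genes in the repressor pathway of PTR2 changed little, with 7 lower and 6 higher of 91 tests and medians between -0.25 and 0.14. Proteins, and so the degradation of Cup9, were not measured. CUP9 itself rose on 6 of 20 sources, 0.68 on threonine being its highest value. Of the sources where PTR2 was high, CUP9 rose on isoleucine (0.57), tryptophan (0.45) and valine (0.61), and it read -0.02 on citrulline and 0.11 on methionine with no call. TUP1, a corepressor gene, fell on 6 of 17, with -0.74 on citrulline as its lowest value.

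Around OPT1, the sulfur list was lower in 59 of 243 tests and higher in 28. On methionine 9 of its 10 tested genes fell, with a median of -1.73 against -0.01 for all genes, the lowest being MET3 (-2.60) and MET14 (-2.49) of sulfate assimilation. On ammonium and GABA, where OPT1 was as low as on methionine, 4 of 13 genes fell on each (medians -0.32 and -0.0031), and on threonine 6 of 12 rose (median 0.29). Genes of glutathione synthesis and use were lower in 22 of 141 tests and higher in 5, with medians between -0.27 and 0.05. ECM38, the gamma-glutamyl transpeptidase gene that starts glutathione breakdown in the vacuole, fell on 13 of 20 sources, lowest at -2.14 on asparagine, and GTT1, a glutathione transferase gene, was at -0.96 there.

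The genes whose values over the sources were most like those of a member were ranked by Pearson correlation among 4329 genes with values on at least 18 sources. For DAL5 they were CPS1, a vacuolar carboxypeptidase gene (0.95), ILT1 (0.95), VSB1, a vacuolar amino acid storage gene (0.94), DCG1 (0.94) and ODC1, a mitochondrial oxodicarboxylate carrier gene (0.93). Each had a narrower range than DAL5: CPS1 ran from -2.81 to 0.20. For PTR2 the values were lower, with HMS2, a gene linked to pseudohyphal growth, at 0.84, IAT4 at 0.82, YJR149W and ESL2 at 0.81 and VBA4 at 0.80. For OPT1 they were GTO1, a glutathione transferase gene (0.89), YGR153W (0.88), CYS4, the cystathionine beta-synthase gene (0.84), QDR3, a multidrug transporter gene (0.83), and MOH1 (0.81). For OPT2 they were IMP2 (0.83), YDL124W (0.79), MGA2, a regulator of fatty acid desaturation (0.79), MRL1 (0.79) and YET2 (0.78). All points share the urea reference, and genes are not independent, so the ranking is a description.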

How the data were processed

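PolyA RNA of yeast on 20 nitrogen sources was compared with RNA on urea on 40 2-colour arrays. The authors deposited 1 log ratio of Cy5 over Cy3 per spot in 2 tables. The deposited values are read as log2, per their range, although the base was not given in the sources used here, nor were normalization, background correction or filters. Array medians lay between -0.0077 and 0.0091. Each table has 12800 probes, of which 10890 and 11188 name 1 gene in the platform annotation; names were updated by gene ID to RefSeq. Spots of a gene were averaged and ratios turned to source over urea. Genes on at least 30 arrays were fitted with limma 3.58.1 (statmod 1.5.0, R 4.3.3): 1 signed term per source plus a dye intercept over all 40 arrays, moderated variance, two-sided tests, Benjamini-Hochberg over genes. Sources with 1 value for a gene were left untested for it. Pairs of sources were contrasts of that fit, adjusted over genes within a pair. The class comparison took fitted values with sources as units, for genes with at least 4 and 7 sources. The code was tested on simulated data. Figures used Python 3.11.15 and matplotlib 3.10.9.

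For 18 sources the replicate number also marks the table and the dye, and nothing used here says whether both tables were normalized jointly. A bias that differs between the tables could move all ratios of a gene 1 way, which cannot be told apart from a level particular to urea; differences among these 18 sources do not carry it. Same-numbered arrays of different sources deviated together in all 153 pairs of sources (r 0.13 to 0.65), so a replicate block was tried in place of the dye term. For the 18 sources with opposite dyes this block is the dye term on another scale. The 2 terms differ only on tryptophan and tyrosine. The 4 genes, the lists, the class and the rule for named genes (the 5 most alike per member and the 2 most changed per list) were chosen with earlier results of these data known. No sequences were used here.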

Additional observations from a re-analysis of the deposited data

How the results depend on the processing

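Fits were repeated without the dye term, with a replicate block, with array medians subtracted, on genes of all 40 arrays or of 20 and more, with spot medians, with array weights, on the arrays of 1 source, with each array left out, with other classes and, chosen after seeing the data, sources with 1 array. Of single values, 588 kept direction and side of the threshold, 50 lost the call, 4 gained it and 3 changed sign, none of them called. Of the 588, 80 came from spot medians, which could not change the value of a member, since each had 2 spots. The values that changed sign, over the arrays left out, were OPT1 on citrulline (-0.16 to 0.22), OPT2 on citrulline (-0.0077 to 0.23) and OPT2 on methionine (-0.31 to 0.16). Without the dye term, 47 pairs of sources differed for DAL5, 31 for OPT1 and 12 for OPT2, and the replicate block gave 81, 45 and 20, and 27 for PTR2. With no dye term or the block, the DAL5 class difference was 2.01 (adjusted p = 0.0456, limma). Among the single source values and the pairs of related molecules, the block ended only the calls of PTR2 on leucine and of OPT1 between tryptophan and phenylalanine. The OPT1 class difference was 0.79 with sources of 1 array and 0.62 to 0.74 with an array left out. OPT2 rose on 6 to 10 sources with an array left out, DAL5 fell on 11 to 14, PTR2 rose on 6 and OPT1 fell on 8. On the arrays of 1 source, OPT1 fell on 7. With sources of 1 array tested, PTR2 rose on 11 sources, OPT1 fell on 14 and OPT2 rose on 14. With genes on all 40 arrays there is a value for DAL5 only. The cause of the other changes was not tested.

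With 2 arrays per source, calls near the threshold rest on both, and signal over background was not analysed here.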
